A study of Mus musculus with 6 samples.

Results

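Matrix metalloproteinases (MMPs) are zinc-dependent proteases that cut collagens, elastin and other matrix proteins, and the tissue inhibitors of metalloproteinases (TIMPs) are small proteins that block them. Macrophages secrete several of both, and Mmp12, the macrophage elastase, takes its common name from them. The set followed here has 10 named genes, Mmp2, Mmp8, Mmp9, Mmp12, Mmp13, Mmp14, Mmp19, Timp1, Timp2 and Timp3, chosen by gene family and matched by gene symbol among the 16836 genes with values. Values for 8 of the 10 could be used. The levels of Mmp2 and Timp3 were not analysed here.

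The cells were mouse bone marrow-derived macrophages, which are grown in culture from marrow precursors, and their polyadenylated RNA was sequenced in 6 libraries. There were 3 libraries from Ube3a knockout mice (KO; the genotype is written Ube3a-/- in the labels' protocol) and 3 from wild-type littermates (WT). The sources used here do not give age, strain, the allele, culture time or any stimulus. Ube3a encodes an E3 ubiquitin ligase, and the comparison asked what its loss does to macrophage transcripts. Nothing in the labels ties each library to its own animal. The p-values therefore cover only the spread among these libraries, which may be in part technical. Xist, given below, set replicate 2 of each genotype apart from the others. Values per library are given in the order of replicates 1, 2 and 3.

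Depth ran from 25454862 to 35517269 reads per library. Levels are given in CPM, reads scaled to a fixed total by the authors' library sizes. Ube3a stood at 61.2 to 77.0 CPM in KO and 178 to 207 CPM in WT, so the targeted transcript was lower in every library labelled KO, though not absent. Macrophage markers were abundant in every library, with 8 of 8 listed markers detected, a summed level of 12757 to 15344 CPM in KO and 13973 to 14553 CPM in WT, and Lyz2, the lysozyme of macrophages, at 8859 CPM or more. Replicate 2 of each genotype had almost no Xist, the X-inactivation transcript (28 reads in KO and 14 in WT), against at least 30161 reads in the other libraries. Among marker lists of other cell types, summed CPM was at most 3.43 for fibroblasts, 0.370 for mast cells and basophils, and 0.120 for lymphocytes. It was higher for neutrophils (26.3 to 34.0), endothelial cells (72.0 to 96.7), dendritic cells (41.3 to 146) and osteoclasts (98.3 to 111). Single genes weighed heavily in these sums. Nfatc1 gave most of the osteoclast sum (84.4 to 93.7 CPM) and Csf3r the largest part of the neutrophil sum (13.8 to 25.3 CPM). Itgax gave almost all of the dendritic-cell sum, and Vwf and Kdr most of the endothelial sum. Col1a1, the fibroblast collagen, did not pass 0.495 CPM. In bulk RNA, fewer cells of a type and less RNA per cell cannot be told apart.

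The members spanned a wide range of levels, led by Mmp12 and Timp2. Between genes, levels are compared as CPM per kilobase of spliced transcript (lengths from GENCODE M21). On that scale Mmp12 averaged 155 over the 6 libraries and Timp2, an inhibitor that also takes part in the activation of MMP2 at the cell surface, averaged 39.1. Mmp19 followed at 8.38, Mmp9 at 6.36, Mmp13 at 6.08, Mmp8 at 4.13, Mmp14 at 2.63 and Timp1 at 2.45, all in CPM per kilobase. The lowest Mmp12 library (108 CPM per kilobase) lay above the highest Timp2 library (49.6), and the lowest Timp2 library (27.5) lay above the highest Mmp19 library (10.1). From Mmp19 down to Timp1, the library ranges of each pair of neighbours in this order overlapped, so that part of the order is not separated by its spread.

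Mmp12 took most of the summed transcript signal of the 8 genes in every library, and its share differed between libraries. It made up 58.6%, 65.0% and 69.2% of the summed CPM per kilobase in KO, and 80.2%, 59.6% and 76.0% in WT. The share of Timp2 was 24.95%, 21.7% and 17.6% in KO and 9.52%, 22.4% and 12.8% in WT. The shares of both genes in WT replicate 2 lay within the KO range, so the groups overlapped in both.

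**Figure D1:**
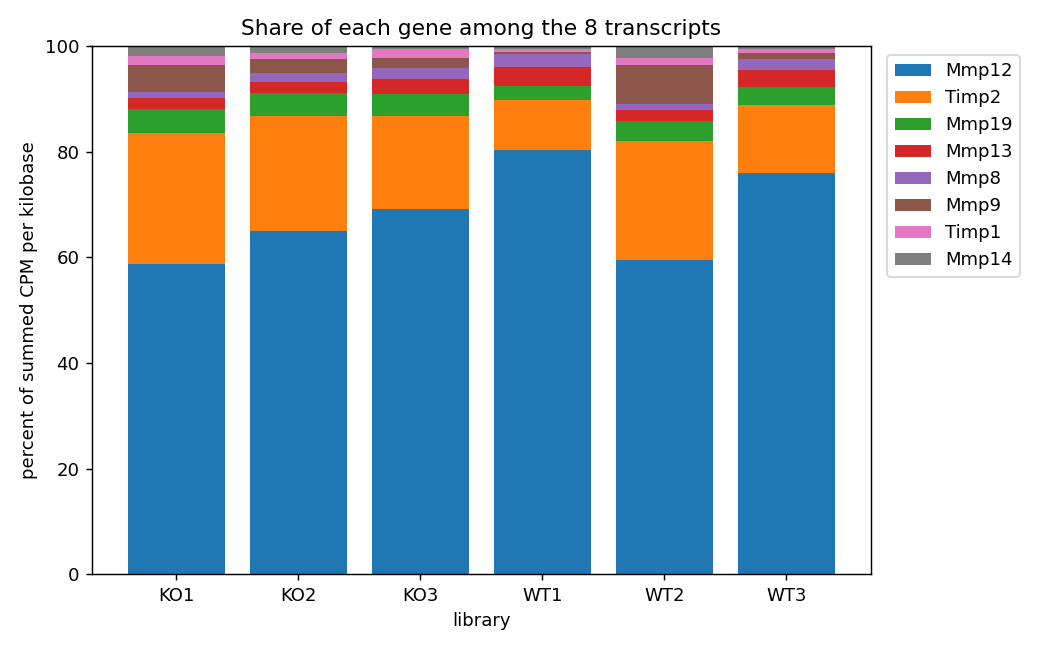
Stacked bars give, for each of the 6 libraries on the x axis, the percent of the summed CPM per kilobase of transcript that each of the 8 genes takes. Mmp12 takes between 58.6% and 80.2%, and its share is highest in WT replicates 1 and 3.

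Mmp13, Mmp12 and Mmp8 lie within one cluster of MMP genes on chromosome 9, and they rose and fell together from library to library. Mmp14 and Timp2, on other chromosomes, tended to the opposite order. The pattern was not that of the whole cluster. Mmp27, also in it, stood at 1.88, 3.57 and 3.14 CPM in KO and at 2.59, 2.41 and 2.55 CPM in WT. For Mmp13, Mmp12, Mmp8, Mmp14 and Timp2 the 250 bases before a RefSeq transcription start are printed (GRCm38.p6, from the strand of the gene). They are chr9:7272264-7272513 on the plus strand for Mmp13, chr9:7344147-7344396 on the plus strand for Mmp12, chr9:7558179-7558428 on the plus strand for Mmp8, chr14:54431348-54431597 on the plus strand for Mmp14 and chr11:118355412-118355661 on the minus strand for Timp2. Capitals mark 3 motifs searched on both strands: TGANTCA, the AP-1 motif, which is its own reverse complement, TATAAA, the TATA box, and GGGCGG, the GC box.
Mmp13: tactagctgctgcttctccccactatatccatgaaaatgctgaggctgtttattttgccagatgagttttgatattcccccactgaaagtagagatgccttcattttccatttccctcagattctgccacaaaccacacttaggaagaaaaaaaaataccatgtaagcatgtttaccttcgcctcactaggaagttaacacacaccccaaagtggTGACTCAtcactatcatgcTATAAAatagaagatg
Mmp12: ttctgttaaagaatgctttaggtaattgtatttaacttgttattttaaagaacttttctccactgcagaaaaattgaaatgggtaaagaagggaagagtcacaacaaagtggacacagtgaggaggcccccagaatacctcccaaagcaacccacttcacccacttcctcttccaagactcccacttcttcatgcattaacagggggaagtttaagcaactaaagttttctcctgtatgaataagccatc
Mmp8: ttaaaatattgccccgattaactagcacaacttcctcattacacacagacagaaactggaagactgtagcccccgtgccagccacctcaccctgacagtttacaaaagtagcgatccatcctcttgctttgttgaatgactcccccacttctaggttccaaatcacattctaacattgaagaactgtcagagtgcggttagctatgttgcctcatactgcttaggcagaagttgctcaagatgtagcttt
Mmp14: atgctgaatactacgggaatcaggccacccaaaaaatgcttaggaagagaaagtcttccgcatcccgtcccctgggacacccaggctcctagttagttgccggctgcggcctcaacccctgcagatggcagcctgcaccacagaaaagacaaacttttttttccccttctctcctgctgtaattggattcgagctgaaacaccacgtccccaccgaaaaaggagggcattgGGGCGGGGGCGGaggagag
Timp2: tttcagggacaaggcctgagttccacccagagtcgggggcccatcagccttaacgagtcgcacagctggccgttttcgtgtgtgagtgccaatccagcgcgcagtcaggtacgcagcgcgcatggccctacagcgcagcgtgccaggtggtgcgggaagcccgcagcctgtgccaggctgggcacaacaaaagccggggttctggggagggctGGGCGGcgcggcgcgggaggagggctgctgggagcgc
The Mmp13 window held TGANTCA from 35 bases before the start and TATAAA from 16 bases before it, with no overlap between them. Among 32851 windows of this length before RefSeq starts, 6.75% held TGANTCA, 12.4% TATAAA and 32.7% GGGCGG. A second RefSeq start of Mmp12, with the window chr9:7347124-7347373, had TGANTCA from 44 bases before it. The windows of Mmp14 and Timp2 held GGGCGG (2 matches in Mmp14, side by side, and 1 in Timp2), and the 3 windows printed for the chromosome 9 genes did not. In GENCODE M21 the Timp2 gene spans 118301069 to 118355740, so its whole window lies inside the gene and is upstream of the RefSeq start only. The last bases of the printed Mmp12 window also lie inside its GENCODE span, which begins at 7344381. G and C made up 40.4%, 40.0% and 44.8% of the Mmp13, Mmp12 and Mmp8 windows, 55.2% of the Mmp14 window and 68.0% of the Timp2 window, against a median of 52.4% over all windows. Windows were found for 7 of the 10 named genes. Mmp2, Mmp9 and Mmp19 had none. Those of Timp1 and Timp3, not printed, each held 1 GGGCGG match, with 54.4% and 65.6% G and C. A match is a description of letters, and the motifs were picked after the library values had been seen.

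Mmp12, which degrades elastin, was the most abundant protease of the set and ranked 205 by mean CPM in the whole table. It stood at 388, 538 and 537 CPM in KO and at 836, 425 and 627 CPM in WT. WT replicates 1 and 3 were the highest, WT replicate 2 lay inside the KO range, and the groups overlapped. The means were 488 ± 86.1 CPM in KO and 629 ± 205 CPM in WT (SD, n = 3 each), with a log2 fold change of −0.33 and a 95% interval of −0.87 to 0.22 (limma with Benjamini-Hochberg adjustment, adjusted p = 0.866). The gene spans chromosome 9 from 7344381 to 7369499 on the plus strand (GRCm38, as for all positions here) and shares 157 exonic bases with Mmp1b on the opposite strand, which was not analysed here.

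Mmp13, a collagenase that cleaves fibrillar collagen, was also highest in WT replicates 1 and 3 and lowest in WT replicate 2 and KO replicate 1, at a far lower level. Its values were 10.5, 13.0 and 16.6 CPM in KO and 27.2, 10.6 and 19.5 CPM in WT. KO replicate 1 and WT replicate 2 were nearly equal, and the groups overlapped. The log2 fold change was −0.42 (95% interval −1.12 to 0.28; limma adjusted p = 0.866). Mmp13 lies at chromosome 9: 7272514 to 7283331.

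Mmp8, known as neutrophil collagenase, stood at 5.40, 9.77 and 10.9 CPM in KO and at 17.1, 5.41 and 11.6 CPM in WT. Here too KO replicate 1 and WT replicate 2 were the lowest and WT replicate 1 the highest. Mmp8 had a log2 fold change of −0.28 (95% interval −1.15 to 0.59; limma adjusted p = 0.900). Mmp8 lies at chromosome 9: 7558456 to 7568485. Over the 6 libraries Pearson's r on log2(CPM + 1) was 0.97 between Mmp12 and Mmp13, 0.97 between Mmp8 and Mmp12 and 0.96 between Mmp8 and Mmp13, as a description of values that share libraries and scaling.

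Because Mmp8 is a granule gene of neutrophils, the markers of that cell type are given beside it. Of 12 neutrophil markers 10 had values, and their summed level was 26.3 to 33.9 CPM in KO and 29.6 to 34.0 CPM in WT. Csf3r, the G-CSF receptor and the most abundant of them, was highest in WT replicate 2 and lowest in WT replicate 1, at 23.4, 24.9 and 20.1 CPM in KO and at 13.8, 25.3 and 17.03 CPM in WT, unlike Mmp8. S100a9 stood at 1.40, 2.09 and 3.21 CPM in KO and at 4.61, 2.19 and 4.94 CPM in WT. Camp and Elane, which encode granule proteins, were at 0 reads in KO replicate 1 and WT replicate 2, and Mpo was at 0 in WT replicate 2. Other scarce markers had 0 reads elsewhere. Cxcr2 had 3, 2 and 0 reads in KO and 9, 7 and 5 in WT. Prtn3 had 1, 12 and 0 reads in KO and 6, 0 and 9 in WT. Camp, Elane, Mpo, Cxcr2 and Prtn3 had at most 51 reads in any library. The average of the 5 neutrophil markers above the low-value filter was highest in WT replicates 1 and 3 and lowest in KO replicate 1 and WT replicate 2, as for Mmp8. The part of these markers in the Mmp8, Mmp12 and Mmp13 values was not tested.

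Mmp9, gelatinase B, which digests denatured collagen and type IV collagen, varied most of all members. It stood at 29.8, 19.0 and 12.5 CPM in KO and at 3.94, 46.9 and 8.98 CPM in WT. WT replicate 2 was the highest of all libraries and WT replicate 1 the lowest, 11.9-fold apart, so the whole KO range lay inside the WT range. That spread, 3.28 on the log2(CPM + 1) scale, was at the 99.97th percentile of the 12118 tested genes, whose median spread was 0.32. The mean was 20.4 ± 8.75 CPM in KO and 19.9 ± 23.5 CPM in WT (SD, n = 3 each). The log2 fold change of 0.61 had a 95% interval of −1.09 to 2.30 (limma adjusted p = 0.892), an interval that reaches past a doubling in KO and past a halving. Mmp9 lies at chromosome 2: 164940780 to 164955850 on the plus strand.

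The order of libraries for Mmp9 was close to the reverse of that for the chromosome 9 genes. Pearson's r over the 6 libraries was −0.98 between Mmp9 and Mmp13, −0.95 between Mmp9 and Mmp12, and −0.97 between Mmp8 and Mmp9. The 3 genes of at least 5 CPM whose pattern was most like that of Mmp9 were Gpr107 (r = 0.995), Arl4c (r = 0.991) and Irf1 (r = 0.989), an interferon-induced transcription factor, chosen among 9960 genes over 6 libraries. Irf1 stood at 38.5, 38.2 and 36.3 CPM in KO and at 32.3, 41.4 and 34.7 CPM in WT, a much narrower range than that of Mmp9.

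Mmp14, a membrane-anchored protease that cleaves collagen at the cell surface and activates the MMP2 precursor, stood at 9.40, 7.97 and 3.61 CPM in KO and at 4.67, 12.1 and 3.19 CPM in WT. WT replicate 2 was again the highest and KO replicate 1 the next, and the groups overlapped. The log2 fold change was 0.16 (95% interval −0.86 to 1.17; limma adjusted p = 0.945). Its r with Mmp9 was 0.82 over the 6 libraries. The genes most like it by r were Tnfsf12 (0.987), Psmd4 (0.985) and Araf (0.984). The gene lies at chromosome 14: 54431612 to 54445364 on the plus strand.

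Libraries with much Mmp9 were also those with the highest interferon-response genes, with an exception in KO replicate 2. Relative to the mean of the 6 libraries, the average of 16 interferon-response genes was 1.04, −0.86 and 0.16 in KO and −0.77, 0.87 and −0.44 in WT, in log2 units. Mmp9 on the same scale was 0.91, 0.28 and −0.28 in KO and −1.73, 1.54 and −0.72 in WT. In KO replicate 2 the interferon genes were at their lowest while Mmp9 and Mmp14 were above their means. This interferon list was added after the member values had been seen, and its part in them was not tested.

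Itgax, the CD11c integrin of dendritic cells and of some macrophages, had the same order of libraries as Mmp9. It was measured at 90.5, 58.5 and 48.6 CPM in KO and at 40.9, 145.8 and 41.6 CPM in WT. Of 7 dendritic-cell markers 4 had values, summing to 49.1 to 91.0 CPM in KO and 41.3 to 146 CPM in WT, almost all from Itgax. The markers that define conventional dendritic cells were near or at 0 in these libraries: Flt3 and Zbtb46 had 1 to 12 reads each, and Xcr1 had 0 to 7. The part of Itgax-expressing cells in the Mmp9 values was not tested.

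**Figure D2:**
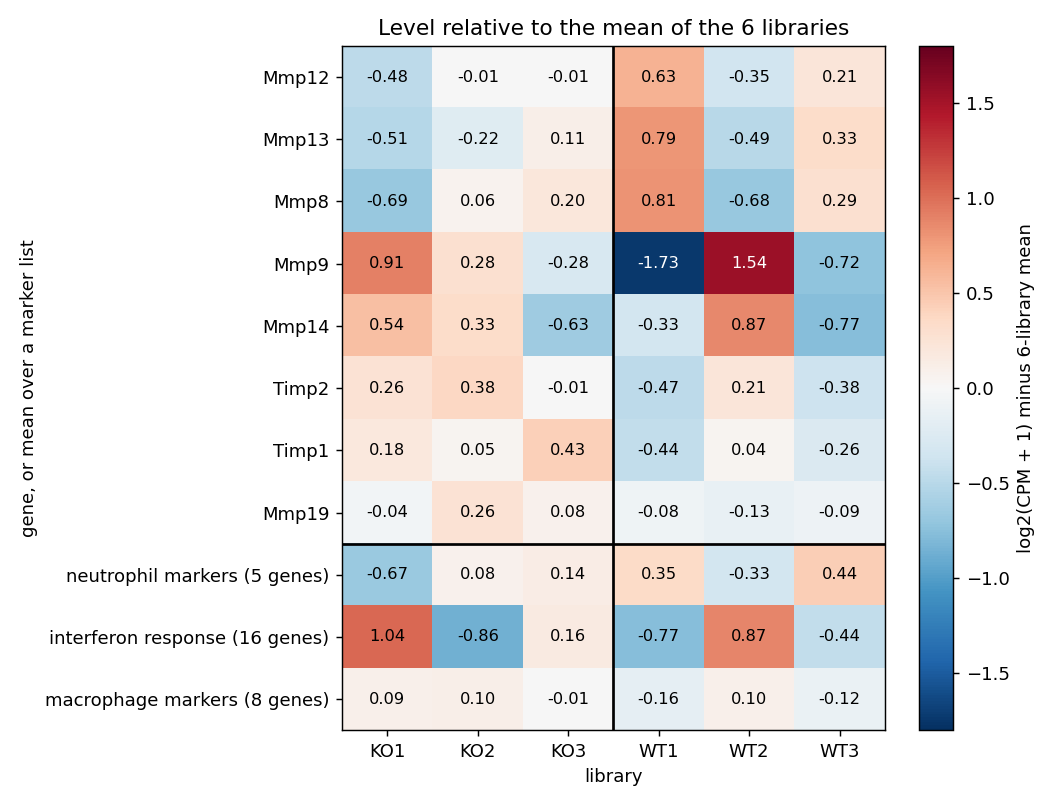
Each cell gives log2(CPM + 1) minus the mean of the 6 libraries, for the 8 genes (rows above the line) and for the average of 3 marker lists (rows below it), with libraries on the x axis. Mmp12, Mmp13 and Mmp8 are highest in WT replicate 1, where Mmp9 is at its lowest, −1.73.

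Mmp19, a protease of basement membrane and other matrix proteins, differed least between libraries. It stood at 27.5, 34.2 and 30.1 CPM in KO and at 26.9, 25.9 and 26.6 CPM in WT. All 3 KO values lay above all 3 WT values, by 0.62 CPM at the closest, so that the groups did not overlap; this was so for 2 of the 8 members and for 9.95% of all tested genes. The log2 fold change was 0.20 (95% interval −0.0069 to 0.40; limma adjusted p = 0.866). Mmp19 (chromosome 10: 128790910 to 128800824) shares 789 exonic bases with Tmem198b on the opposite strand, where reads of both genes cannot be told apart unless strand was used in counting, which no source used here states. Tmem198b itself had 372 to 613 reads in KO and 459 to 602 in WT, with overlapping groups.

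Both inhibitors with values averaged higher in KO, without passing the threshold. Timp2 stood at 170, 184 and 141 CPM in KO and at 102, 164 and 109 CPM in WT. WT replicate 2 again fell among the KO values, and the other WT libraries were lower than every KO library. The means were 165 ± 22.1 CPM in KO and 125 ± 34.1 CPM in WT (SD, n = 3 each), with a log2 fold change of 0.42 ± 0.18 (SE; 95% interval 0.0097 to 0.84; limma adjusted p = 0.866). The gene is on the minus strand of chromosome 11, from 118301069 to 118355740. Fcgr1, the high-affinity IgG receptor of macrophages, showed the same overlap through WT replicate 2, at 188, 154 and 174 CPM in KO and at 85.6, 162 and 118 CPM in WT. The average of the 8 macrophage markers, relative to the mean of the 6 libraries, was 0.09, 0.10 and −0.01 in KO and −0.16, 0.10 and −0.12 in WT on the log2 scale, lowest where Timp2 was lowest. Its part in the Timp2 values was not tested.

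Timp1, an inhibitor that also binds the MMP9 precursor, had the lowest mean CPM of the 8. It stood at 2.52, 2.22 and 3.18 CPM in KO and at 1.28, 2.19 and 1.58 CPM in WT, from 40 to 103 reads per library. The groups did not overlap, but KO replicate 2 (69 reads) and WT replicate 2 (62 reads) were within counting error of each other, with 95% Poisson intervals of 1.72 to 2.81 and 1.68 to 2.81 CPM that cover counting error only. The log2 fold change was 0.44 ± 0.16 (SE; 95% interval 0.064 to 0.82; limma adjusted p = 0.866), and 0.68 with limma-voom on the recovered reads, which adds a smaller count. Timp1 (chromosome X: 20870166 to 20874735, plus strand) lies inside the span of Syn1 on the opposite strand and shares no exonic base with it in GENCODE M21. Syn1 itself had 676 to 789 reads in KO and 334 to 927 in WT. Of 6 endothelial markers 4 had values, and their sum was also higher in every KO library (91.0 to 96.7 CPM) than in every WT library (72.0 to 79.2 CPM), while 9.95% of single tested genes had no overlap between groups, in one direction or the other. Vwf, von Willebrand factor, differed most among them, at 47.6, 62.7 and 59.9 CPM in KO and at 47.7, 40.9 and 40.7 CPM in WT. Its groups overlapped, with KO replicate 1 just below WT replicate 1. Of the 3 tested endothelial markers, 0 had groups without overlap, so only the sum was higher in every KO library. Kdr also overlapped (25.99 to 43.3 CPM in KO and 29.1 to 32.9 CPM in WT). Cdh5 had a log2 fold change of −0.06, and Pecam1, the last marker with values, was at 1.11 CPM or less. The part of these markers in the Timp1 and Mmp19 values was not tested.

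**Figure D3:**
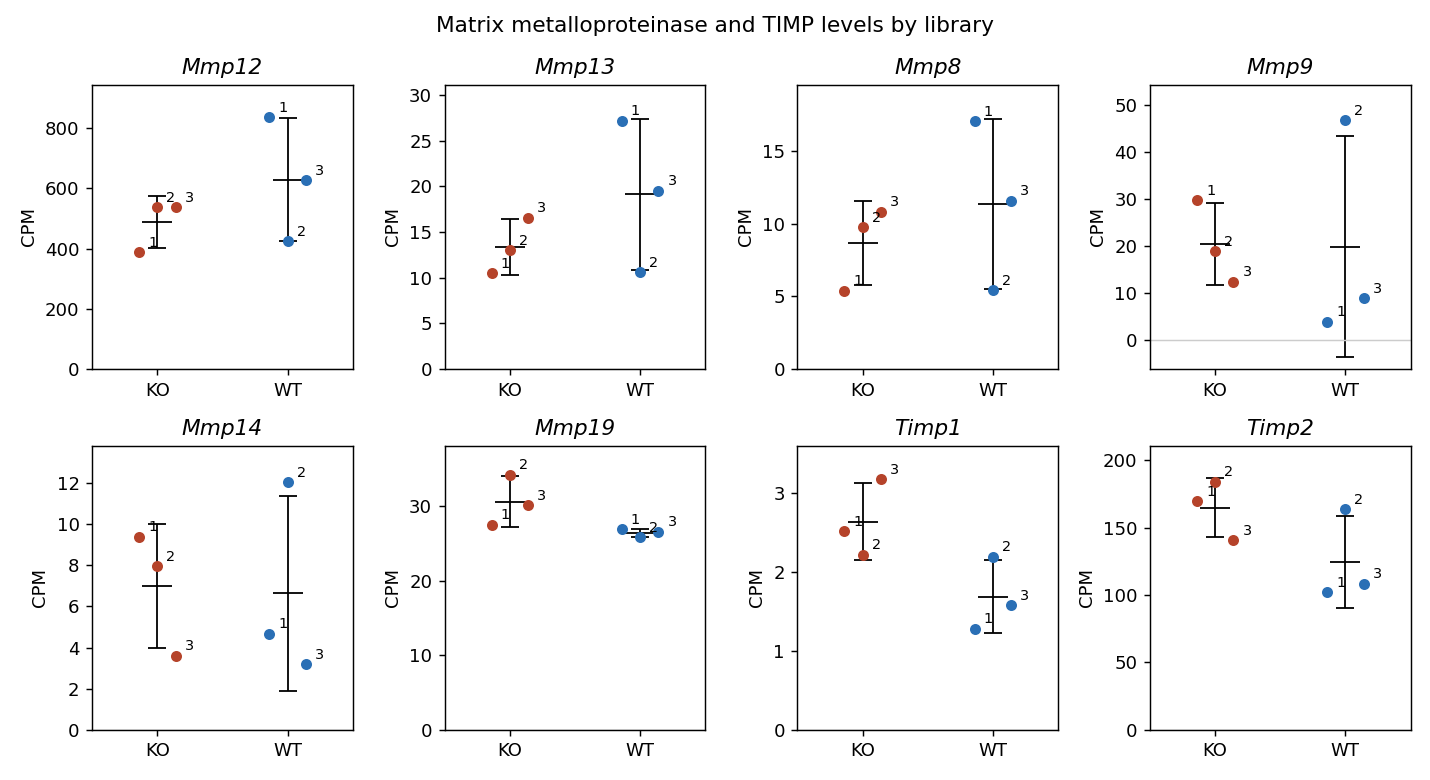
Points give the CPM of each library, labelled by replicate number, for KO and WT in 1 panel per gene, with the mean and SD (n = 3) in black on a linear scale that includes 0. WT replicate 2 lies at one end of the WT values in each of the 8 panels.

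By limma with Benjamini-Hochberg adjustment over all 12118 tested genes, 0 of the 8 members changed with genotype, against 0.0165% of all tested genes (0.00594% when no low-value filter was used). At an unadjusted p under 0.05 there were 2 of 8, Timp1 and Timp2, against 4.13% of all tested genes. Both were higher in KO, where 1.68% of all tested genes were higher at that level. limma-voom gave 0 of 8 after adjustment, against 0.00825% of tested genes, and 2 of 8 before it, against 4.2%. In the authors' deposited table the unadjusted p-values were 0.0218 for Timp1, 0.0361 for Timp2 and 0.0485 for Mmp19. Of the 8 log2 fold changes 5 were positive, where 50.4% of all tested genes were, and their median was 0.18, against 0.0015 over all tested genes. All 8 members passed the low-value filter with more than 1 CPM in every library.

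Without WT replicate 2 the genotype difference was larger for 7 of the 8 members, and for Mmp19 it was 0.18 against 0.20 on the log2 scale. In that fit 6 of 8 members had an unadjusted limma p under 0.05 (Mmp8, Mmp9, Mmp12, Mmp13, Timp1 and Timp2), against 10.6% of all tested genes, and 0 of 8 passed after adjustment, against 0.066%. WT replicate 2 lay at one end of the WT values for all 8 members, so leaving it out narrows the WT spread by construction. Mmp8, Mmp12 and Mmp13 varied together and Mmp9 in reverse, so these members are not separate counts. The log2 fold change was 1.53 for Mmp9, −0.58 for Mmp12, −0.77 for Mmp13, −0.69 for Mmp8 and 0.64 for Timp2, and the lowest adjusted p was 0.151, that of Timp2. Without WT replicate 1 or without WT replicate 3 the count was 0 of 8, against 1.23% and 3.19% of all tested genes. Without KO replicate 2 or KO replicate 3 it was 1 of 8, against 2.16% and 5.46%, and without KO replicate 1 it was 2 of 8, against 4.21%. Among the 4 libraries with high Xist, that is without replicate 2 of either genotype, it was 6 of 8, against 11.4%, and after adjustment 0 of 8, against 0.198%. There Timp2 had a log2 fold change of 0.55 (limma adjusted p = 0.0646). The fit of these 4 libraries also leaves out WT replicate 2, so both limits above hold for its count. The libraries almost without Xist are 1 per genotype and allow no test of their own.

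**Figure D4:**
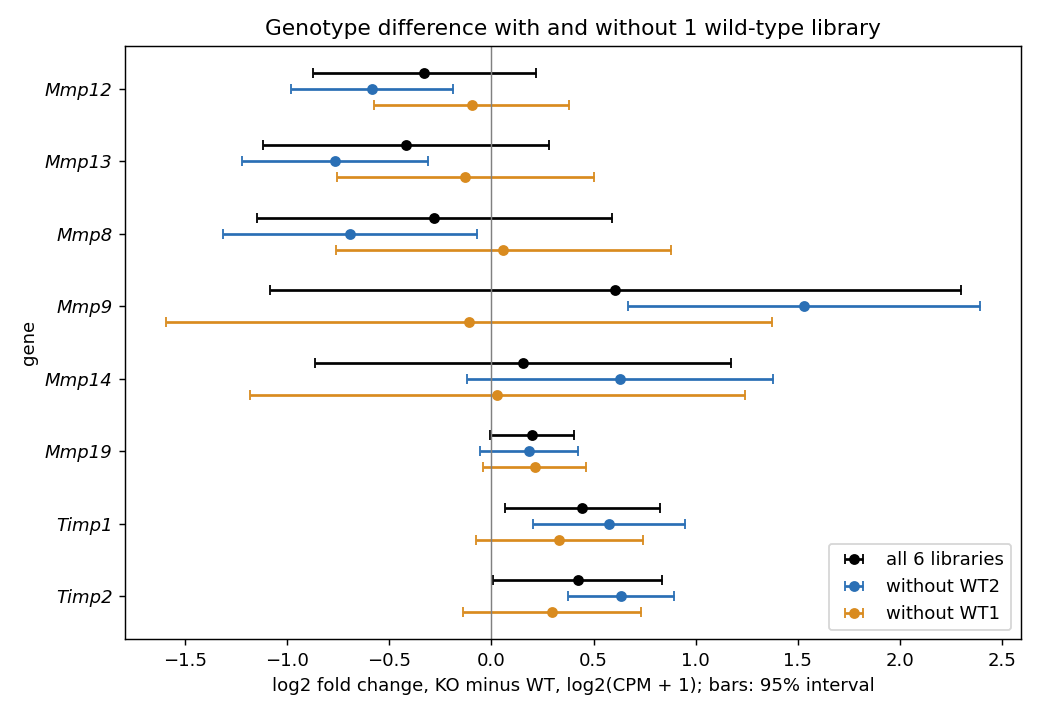
Points give the log2 fold change of each gene, KO minus WT on the log2(CPM + 1) scale, with 95% intervals from limma, for all 6 libraries and for the fits that leave out WT replicate 2 or WT replicate 1. For Mmp9 the point moves from 0.61 to 1.53 without WT replicate 2 and to −0.11 without WT replicate 1.

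Protease and inhibitor pairs that act together were compared as a log2 ratio of CPM + 1 within each library. The ratio of Mmp14 to Timp2 was −4.04, −4.37 and −4.94 in KO and −4.18, −3.66 and −4.71 in WT. The groups overlapped, and the difference of −0.27 had p = 0.5 in a two-sided exact permutation test. For Mmp9 to Timp1 the ratio was 3.13, 2.64 and 1.69 in KO and 1.11, 3.91 and 1.95 in WT. Its difference of 0.16 was smaller than the spread within either genotype, with p = 1 in the same exact test. The smallest p that 3 against 3 libraries allow is 0.1.

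Other members of both families were scarce. Of 17 further MMP and TIMP genes looked for, 7 had values and 2 passed the low-value filter. Mmp27, from the chromosome 9 cluster, averaged 2.86 ± 0.878 CPM in KO against 2.52 ± 0.0986 CPM in WT. Mmp28, epilysin, averaged 1.30 ± 0.145 against 1.05 ± 0.128 CPM (SD, n = 3 each). Their log2 fold changes were 0.11 and 0.17 (limma adjusted p = 0.914 and 0.866). Mmp10, Mmp11, Mmp15, Mmp17 and Mmp25 had between 2 and 29 reads in any library.

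Among genes known to activate, dock or clear these proteases, or to work beside them, 0 of the tested genes of 6 lists passed the adjusted threshold, by limma and by limma-voom. Among 12 partners of MMPs, 1 had an unadjusted limma p under 0.05: Furin, a proprotein convertase that activates membrane-type MMPs, at 75.8, 86.0 and 74.9 CPM in KO and 96.7, 90.6 and 92.1 CPM in WT. Furin had a log2 fold change of −0.24 (limma adjusted p = 0.866), and 2.44% of all tested genes were lower in KO at that unadjusted level. Furin lies on chromosome 7, as does Ube3a, and whether their shared chromosome bears on this difference was not tested. All 3 KO values of Furin were below all 3 WT values, which made it 1 of 12 partners with groups that did not overlap, against 9.95% of all tested genes. Itgav, an integrin chain, followed with a log2 fold change of −0.27. Of 7 ADAM family proteases 0 had an unadjusted limma p under 0.05, against 4.13% of all tested genes, with the sheddases Adam17 at −0.13 and Adam10 at −0.21.

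In the plasminogen system, whose product plasmin can activate MMP precursors, 0 of 6 tested genes had an unadjusted limma p under 0.05 (1 of 6 with limma-voom). Over all tested genes the share at that level was 4.13% with limma and 4.2% with limma-voom, for this list and those below. Plaur, the urokinase receptor, had a log2 fold change of −0.24. Among 15 AP-1, ETS, RUNX and NF-kB factors the count was 0, with Jun at 0.16 and Spi1 at 0.22. Among 6 matrix proteins it was 0, with Fn1, fibronectin, at 0.46 and Col4a1, a type IV collagen chain, at −0.75. Of 4 cysteine cathepsins, which also degrade matrix, 0 passed, with Ctsb at 0.32 and Ctsl at −0.16.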

How the data were processed

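RNA was sequenced from 3 KO and 3 WT macrophage libraries, grouped by title. The submitters' processing notes name HTSeq 0.11.0, Trimmomatic 0.36, Cufflinks, HISAT2 2.1.0 and FastQC 0.11.15 with no role; no source used here gives the genome build or annotation. The authors deposited log2 CPM per gene and library, with lost decimal marks, and an unadjusted p-value per gene. Whole reads were recovered from the step between low values, within 1e-06 of a whole number for 100% of genes in each library, and 1 read was worth 0.0277 to 0.0400 CPM. CPM were computed on the authors' scaled library sizes. A low-value filter kept genes reaching 1 CPM in 3 or more libraries. Their log2(CPM + 1) was fitted on genotype alone with limma 3.58.1 (trend, R 4.3.3); this scale understates changes of low genes. The threshold was an adjusted p under 0.05. Since the columns hold log2 CPM, the test planned for counts was not used. The step was tested on simulated data. Replicates differed by far more than sampling noise (chi-square per degree of freedom 10.9 to 44.1), so none were merged. Gene coordinates, overlaps and spliced lengths come from GENCODE M21 (GRCm38), the longest transcript of the best APPRIS level being used for length. Members and lists were chosen with earlier results of these data known. Named genes are all members, further MMP and TIMP genes, Ube3a, Xist and the 2 genes with the smallest p in each pathway list, of which 1 is not reported here; cell-type markers named beside them were picked to describe the lists.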

Additional observations from a re-analysis of the deposited data

How the results depend on the processing

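The count of 0 changed members was the same in each of the 14 alternative fits: another pseudocount (0.25 CPM), no low-value filter, limma-voom, plain read totals, median-of-ratios size factors, a replicate block, Xist as a covariate, each library left out in turn, and both replicate 2 libraries left out. Adjusted p over members and alternatives ran from 0.0646 to 0.9998. Mmp12, Mmp13, Mmp19, Timp1 and Timp2 kept their direction in all 14. The others turned when 1 library was left out: Mmp8 to 0.057 and Mmp9 to −0.11 without WT replicate 1, and Mmp14 to −0.075 without KO replicate 1 and −0.19 without WT replicate 3. Over all libraries left out, their log2 fold changes ran from −0.79 to 0.057, −0.11 to 1.54 and −0.19 to 0.63. With 1 library left out, the log2 ratio difference of Mmp9 to Timp1 ran from −0.44 to 0.95, and that of Mmp14 to Timp2 from −0.53 to −0.01. The scalings moved the median of all tested genes by less than 0.1 on the log2 scale. Same-numbered libraries of both genotypes did not deviate together (correlations of −0.22, −0.13 and 0.14 for numbers 1 to 3), and with the replicate block 0 members passed and 2 genes passed in all, as without it. Over all tested genes the count past the threshold was 2, against 8 without WT replicate 2, 24 without both replicate 2 libraries, and 1 without the filter, with limma-voom and without KO replicate 1, 2 or 3 or WT replicate 1 or 3. Timp1 had a log2 fold change of 0.59 with the smaller pseudocount. Depth limits Timp1, with 40 reads in the library where it was lowest, and leaves the library spread as the limit for Mmp9 and Mmp12.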

Other observations

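A few further genes, picked after their values had been seen, were high in WT replicates 1 and 3 and low in WT replicate 2, as Mmp12 and Mmp13 were. Col4a1 and Col4a2, both chains of type IV collagen, a protein that MMP9 can cut, stood in KO at 3.20, 7.20 and 7.83 CPM and at 5.32, 13.1 and 14.4 CPM. In WT they stood at 18.0, 2.44 and 21.1 CPM and at 28.4, 3.78 and 37.4 CPM. They were highest in WT replicate 3 and lowest in WT replicate 2 and then KO replicate 1, the libraries highest in Mmp9. Vcan, the proteoglycan versican, was also lowest in these libraries (3.15 and 7.32 CPM) and highest in WT replicate 1 (21.6 CPM). Fosl1, an AP-1 subunit, stood at 1.96, 1.51 and 2.07 CPM in KO and at 5.60, 1.45 and 3.91 CPM in WT, with its highest values in the libraries highest in Mmp13. Other AP-1 subunits differed among themselves. In WT, Fos stood at 49.7, 39.1 and 51.3 CPM, but Jund at 54.9, 111 and 75.9 CPM, lowest in WT replicate 1. The part of AP-1 genes in the Mmp13 values was not tested. Among markers of osteoclasts, cells related to macrophages that rely on MMPs and cathepsins, Dcstamp, a cell fusion protein, averaged 7.55 ± 0.235 CPM in KO against 10.9 ± 1.89 CPM in WT (SD, n = 3 each), with every KO value below every WT value (limma adjusted p = 0.866). Groups did not overlap for 9.95% of all tested genes. Dcstamp was 1 of 5 tested osteoclast markers without overlap, and the log2 fold changes of Acp5, Ctsk, Nfatc1 and Atp6v0d2 were 0.067, 0.039, 0.049 and −0.010.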
